A study of Mus musculus with 24 samples.

Results

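Trichohyalin (Tchh) and the 8 S100 genes present in the expression table were followed across 4 groups of primary neural stem cells (NSCs). These 9 genes were taken from 14922. S100a11 and Tchh were selected because both read lower in MommeD43 cells and because both stood apart in 1 wild-type library, so for that comparison their values are described without a test. The other 7 were added by family name. Of the 9, S100b lies on chromosome 10 and the others lie on chromosome 3.

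S100 proteins are small calcium-binding proteins of the EF-hand type that usually work as dimers and change shape when calcium binds, which exposes a surface for partner proteins. Most of their genes sit in a single cluster beside the epidermal differentiation complex, the group of genes that build the outer layer of skin. Trichohyalin belongs to the fused type of the family, with an S100-like start joined to a long repeat region, and is known as a structural protein of the inner root sheath of the hair follicle. In brain, S100b is widely used as a marker of astrocytes.

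All cells were female NSCs from the cortex of mouse embryos, grown as an adherent layer and harvested below passage 10, and each line came from a separate embryo. SMCHD1 is a chromatin protein that takes part in gene silencing and X inactivation. MommeD43 is a single amino acid change in its extended ATPase domain. The FVB_WT group (6 libraries of 5 lines) and the FVB_MD43 group (5 libraries of 4 lines) were on the FVB/NJ background, Smchd1+/+ or homozygous for the allele induced with the mutagen ENU. The B6GFP_WT group (6 libraries of 4 lines) and the B6GFP_MD43 group (5 libraries of 4 lines) were on C57BL/6J and carried Smchd1 fused to GFP, without the change or with the change recreated by Cas9 editing. The labels list the controls of this strain as wild type, whereas the study describes them as homozygous for the fusion. Strain and fusion always differed together and cannot be told apart. The batch 1 columns of FVB_MD43 replicate 3 and B6GFP_MD43 replicate 2 matched the average of their group mates in every gene, and these 2 of the 24 columns were left out.

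Values are log2 CPM (reads of a gene scaled to the size of its library), corrected for batch by the authors. The labels name 3 batches, and the study states that the data came from several experiments. Libraries of both strains were in batch 1, whereas batch 2 was all FVB and batch 3 all B6GFP. Absolute read depth was unknown, but low values fell on steps of 1 read, which gave reads per gene and the depth of each library relative to the deepest one. Batch 1 lay at 0.526 to 0.893 of that depth, batch 2 at 0.137 to 0.19 and batch 3 at 0.435 to 1. All 7 listed neural stem cell markers were in the table. Nes, Sox2, Vim, Fabp7 and Slc1a3 were at 7.39 log2 CPM or higher in every library, Pax6 was at 4.34 to 5.23 and Hes5 varied from 0.96 to 5.48. Of 6 keratinocyte markers, which define the skin cells in which trichohyalin relatives are usually found, 2 were in the table, with Krt10 at 1.94 to 2.85 and Krt1 at -3.73 to -1.65 log2 CPM, and Krt5, Krt14, Krt15 and Trp63 had no row.

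Tchh, S100a11 and S100a10 are neighbours on the plus strand of chromosome 3 (GRCm38.p6). Tchh occupies 93442330 to 93449077, S100a11 occupies 93520496 to 93526288 and S100a10 occupies 93555117 to 93564645. The gaps are 71418 bases between Tchh and S100a11 and 28828 bases between S100a11 and S100a10. Within 0.5 Mb of S100a11 or Tchh, 43 genes are annotated and only these 3 were in the table. Of the 52 listed genes of the epidermal differentiation complex, 2 were in the table, Tchh and Lor (loricrin, a protein of the cornified envelope). S100a16, S100a1, S100a13, S100a4 and S100a6 lie 2827915 bases or more before Tchh, and S100a1 and S100a13, on opposite strands, overlap by 98 bases. Whether counting used strand was not stated, so reads in that overlap could not be assigned to either gene.

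The start regions of the 2 selected genes are shown because these genes lie side by side, both read lower in FVB_MD43 and differ in base composition. Each sequence is the 250 bases before the RefSeq start on GRCm38.p6, plus strand, with capitals for matches to GGGCGG (the core of an Sp1 site) and TGANTCA (the AP-1 motif, N being any base). TATAAA was also searched, all on both strands, and no match overlapped another.
S100a11, chr3:93520246-93520495: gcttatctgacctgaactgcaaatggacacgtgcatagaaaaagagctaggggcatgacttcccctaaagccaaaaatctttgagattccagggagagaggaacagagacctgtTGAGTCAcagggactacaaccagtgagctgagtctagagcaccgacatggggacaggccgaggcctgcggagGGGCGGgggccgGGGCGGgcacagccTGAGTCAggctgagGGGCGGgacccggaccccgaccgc
Tchh, chr3:93442080-93442329: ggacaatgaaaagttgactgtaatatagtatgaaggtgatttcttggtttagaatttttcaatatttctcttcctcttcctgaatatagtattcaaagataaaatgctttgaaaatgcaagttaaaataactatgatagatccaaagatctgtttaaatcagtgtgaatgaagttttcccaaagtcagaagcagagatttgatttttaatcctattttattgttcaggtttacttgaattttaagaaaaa
The S100a11 stretch held 3 matches to GGGCGG and 2 to TGANTCA, 11 CG pairs and 60% G or C. Tchh had no match to any of the motifs searched, 0 CG pairs and 27.6% G or C. Over 32851 windows of the same length the medians were 6 CG pairs and 52.4% G or C, and GGGCGG was found in 32.7%, TGANTCA in 6.75% and TATAAA in 12.4%. Windows were found for 8 of the members (all but S100a10). TATAAA occurred in S100a4 alone among them, 31 bases before the start. These are matches of letters, not evidence of binding.

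Tchh was lower in MommeD43 cells of both strains. In FVB_WT the 6 libraries ran from -2.15 to 0.81 log2 CPM with a median of -0.45. The 5 FVB_MD43 libraries were at -2.25, -2.13, -2.23, -3.53 and -1.98, so 3 of 5 lay below the lowest wild-type library and the groups overlapped through FVB_WT replicate 4, sequenced in batch 2. Means over lines were -0.60 ± 1.11 (SD, n = 5) in wild type and -2.48 ± 0.71 (SD, n = 4) in MommeD43. The fitted difference was -1.45 (SE 0.313), or 2.73-fold lower. In B6GFP_WT the libraries ran from -1.38 to 0.87 with a median of -0.72. The 5 B6GFP_MD43 libraries were at -3.61, -2.22, -2.39, -4.20 and -2.70, all below the wild-type range. Means over lines were -0.45 ± 0.88 (SD, n = 4) and -2.96 ± 0.62 (SD, n = 4), and the fitted difference was -2.40 (SE 0.407), or 5.28-fold lower. In bulk RNA, fewer cells that express a gene and less RNA per cell cannot be told apart.

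These differences rested on few reads. Tchh was counted at 1 to 19 reads a library in FVB_WT, 0 to 6 in FVB_MD43, 13 to 123 in B6GFP_WT and 0 to 11 in B6GFP_MD43. Reads were 0 in 3 libraries, all MommeD43. Scaled to the depth of the deepest library, MommeD43 cells had 6.32 reads against 25.4 in wild type in FVB of batch 1, a ratio of 0.249, and 4.17 against 42.3 in batch 2, a ratio of 0.0986. In B6GFP the ratios were 0.0899 in batch 1 and 0.106 in batch 3. The batch 3 ratio rested largely on B6GFP_WT replicate 4, which held 123 of the 150 wild-type reads. The other wild-type libraries of that batch held 13 and 14. Direction was therefore the same in each of the 4 strain and batch sets, without the authors' batch correction. FVB_WT replicate 4 had a single read. On the log2 (CPM + 1) scale, which compresses values this low, the fitted differences shrank to -0.41 in FVB and -0.52 in B6GFP.

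S100a11, which is known to bind annexin A1 and to take part in membrane repair and cell growth, was lower in MommeD43 cells of FVB. The FVB_WT libraries ran from 3.18 to 4.36 log2 CPM with a median of 3.74. The FVB_MD43 libraries were at 2.91, 3.05, 2.68, 3.02 and 2.96, all below wild type. Line means were 3.69 ± 0.31 (SD, n = 5) and 2.94 ± 0.07 (SD, n = 4), with a fitted difference of -0.71 (SE 0.129), or 1.64-fold lower. Scaled reads gave ratios of 0.603 in batch 1 and 0.498 in batch 2. The FVB value rested on 75 to 530 reads a library.

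In B6GFP the difference of S100a11 was close to 0 in the fit and larger in the plain means. B6GFP_WT ran from 3.96 to 5.61 with a median of 4.23, and B6GFP_MD43 was at 3.96, 3.88, 4.65, 4.38 and 3.79, so the groups overlapped and 2 of 5 lay below wild type. Line means were 4.53 ± 0.72 (SD, n = 4) and 4.03 ± 0.33 (SD, n = 4), whereas the fit gave -0.08 (SE 0.167). The fit gave B6GFP_WT replicate 4, at 5.61, a weight of 0.101, the lowest of the 22 libraries, and the means of the other lines lay at 4.08 to 4.29. Scaled reads gave a ratio of 1.03 in batch 1 and of 0.506 in batch 3, the batch of that library. Fits within batch 1 and batch 3 alone gave 0.04 and 0.05, so the sign was not settled.

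B6GFP_WT replicate 4 was the deepest library and the highest of its group for Tchh (0.87, 123 reads), S100a11 (1071 reads), S100a10 (9.75), S100a1 (3.19), S100a4 (0.09), S100a6 (-0.15), S100a13 (3.32) and S100b (0.41), and the lowest for S100a16 (3.89). Its standing apart in Tchh and S100a11 was part of the selection. It also had the highest level of Foxc1, a transcription factor of meningeal cells, among all libraries (5.67 against a mean of 2.60), and of Vim (11.9), whereas the fibroblast markers Dcn and Col1a1 were at -5.25 and -2.60. The 6 fibroblast and meningeal markers in the table (9 were listed) summed to 5.72 log2 CPM in this library and to 3.52 to 5.72 over B6GFP_WT, against 3.03 to 4.91 in B6GFP_MD43, 1.90 to 2.21 in FVB_WT and 2.02 to 3.03 in FVB_MD43. In this library the sum was almost all Foxc1, and the other 5 markers were at -0.26 or below. Gfap, an astrocyte marker, was also at its highest of all libraries here (2.72 against a mean of -0.46), and the sum of the 5 astrocyte markers, 7.01, was the highest of B6GFP_WT. Their part in these results was not tested. Without this line the fitted MommeD43 difference in B6GFP was -2.32 for Tchh and -0.07 for S100a11.

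**Figure D1:**
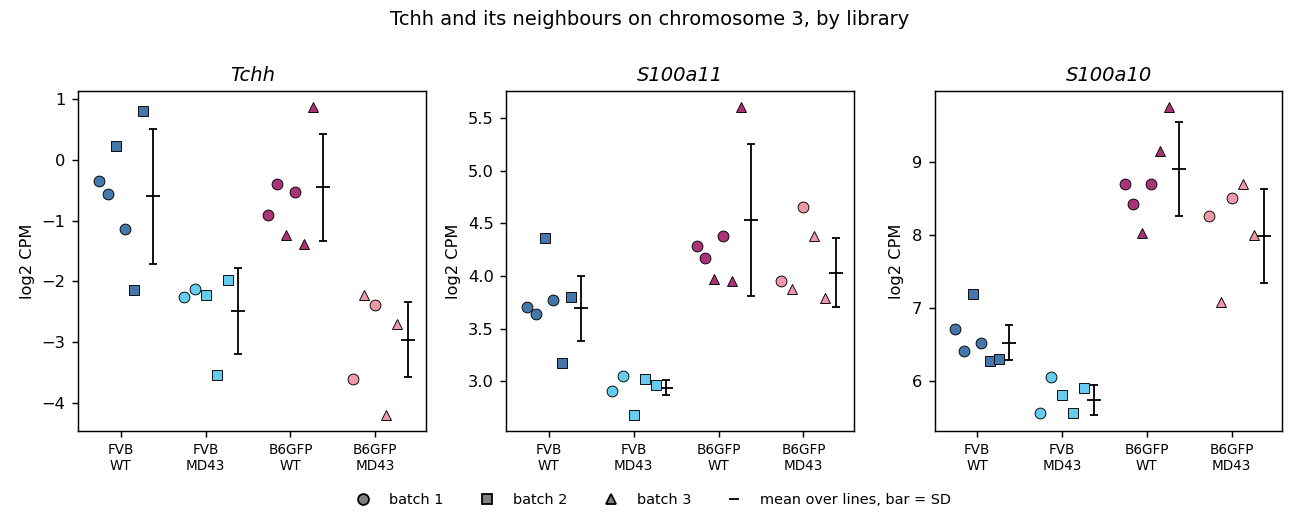
Each point is the log2 CPM of 1 library for Tchh, S100a11 and S100a10 in the 4 groups, with the marker shape giving the batch and the horizontal tick and bar the mean and SD over lines. MommeD43 libraries sit below wild type for all 3 genes in FVB except for Tchh in FVB_WT replicate 4 (-2.15), and B6GFP_WT replicate 4 is the highest point of its group in each panel.

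S100a10, the partner of annexin A2 in a tetramer at the plasma membrane and the nearest expressed neighbour of S100a11, was added by family name and so was tested. FVB_WT ran from 6.28 to 7.19 log2 CPM with a median of 6.47. The FVB_MD43 libraries were at 5.56, 6.06, 5.82, 5.57 and 5.91, and no library overlapped the wild-type range. Line means were 6.53 ± 0.24 (SD, n = 5) and 5.75 ± 0.21 (SD, n = 4). The fitted difference was -0.62 (SE 0.138) and did not pass the threshold of 0.05, with an adjusted p of 0.110 over all genes (limma with Benjamini-Hochberg adjustment). It did pass with line means (-0.85, adjusted p = 0.0469). It also passed without FVB_MD43 replicate 2 (-0.90, adjusted p = 0.000358), where the genes called over the whole table rose from 11 to 976 (6.54%). Scaled reads gave ratios of 0.612 in batch 1 and 0.528 in batch 2. Over all genes, 0.261% had every FVB_MD43 library below every FVB_WT library, among them S100a10 and the selected S100a11. In B6GFP the corresponding share was 0.107%, among them the selected Tchh.

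In B6GFP, S100a10 ran from 8.02 to 9.75 in wild type and was at 8.26, 7.09, 8.50, 8.69 and 8.0 in MommeD43, and 2 of 5 fell below wild type. Line means were 8.90 ± 0.64 (SD, n = 4) in wild type and 7.99 ± 0.65 (SD, n = 4) in MommeD43. The fitted difference was -0.25 (SE 0.180, limma adjusted p = 1.0), with a 95% interval of -0.63 to 0.12. Without array weights it was -0.77 (SE 0.295) and did not pass. Scaled reads gave ratios of 0.849 in batch 1 and 0.362 in batch 3. In batch 3, B6GFP_WT replicate 4 held 11751 of the 18251 wild-type reads. The difference between strains in the MommeD43 effect was 0.37 (95% interval -0.10 to 0.84) and did not pass. Without array weights that difference was 0.016 (SE 0.413), and the MommeD43 effect in FVB was -0.79. The lowest B6GFP_MD43 values were those of replicates 2 and 4, both of batch 3, and replicate 2 had a weight of 0.158.

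For the 6 remaining S100 genes no MommeD43 difference passed in either strain. Over all genes, 0.0737% passed in FVB (11 genes), whereas 0% passed in B6GFP and 0% for the difference between strains, where 319 and 458 genes had an unadjusted p under 0.05. Of the 7 genes tested here, 0 passed in each of these 3 comparisons. In FVB the fitted differences of the 6 were 0.06 for S100a1, 0.47 for S100a4, 0.34 for S100a6, 0.06 for S100a13, 0.20 for S100a16 and 0.33 for S100b, all on the side opposite to S100a10. The median of all genes in that comparison was 0.01. The narrowest 95% interval was that of S100a13 (-0.17 to 0.29) and the widest that of S100a6 (-0.45 to 1.13). Without FVB_MD43 replicate 2, whose batch 1 library had the highest weight (4.9), S100a4 (0.84, limma adjusted p = 0.0197) and S100a16 (0.32, adjusted p = 0.0469) passed as well as S100a10, 3 of 7 in all, in a fit where 6.54% of all genes passed.

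In B6GFP the 6 differences lay between -0.09 (S100a13) and 0.18 (S100a6). Their 95% intervals reached from -0.38 to 0.21 for S100a13, the narrowest, and from -0.84 to 1.21 for S100a6, the widest. Without array weights the 6 differences lay between -0.73 (S100b) and 0.21 (S100a16), with S100a1 at -0.57, and none passed. S100a4, known for its binding to non-muscle myosin, was read at 2 to 22 reads in FVB_WT and 4 to 45 in FVB_MD43. Its scaled reads were 1.26 times wild type in batch 1 and 2.65 times in batch 2 of FVB, and 0.741 and 0.5 times in B6GFP. In batch 2 the wild-type libraries held 9 reads in all. In batch 3, B6GFP_WT replicate 4 held 75 of the 102 wild-type reads.

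**Figure D2:**
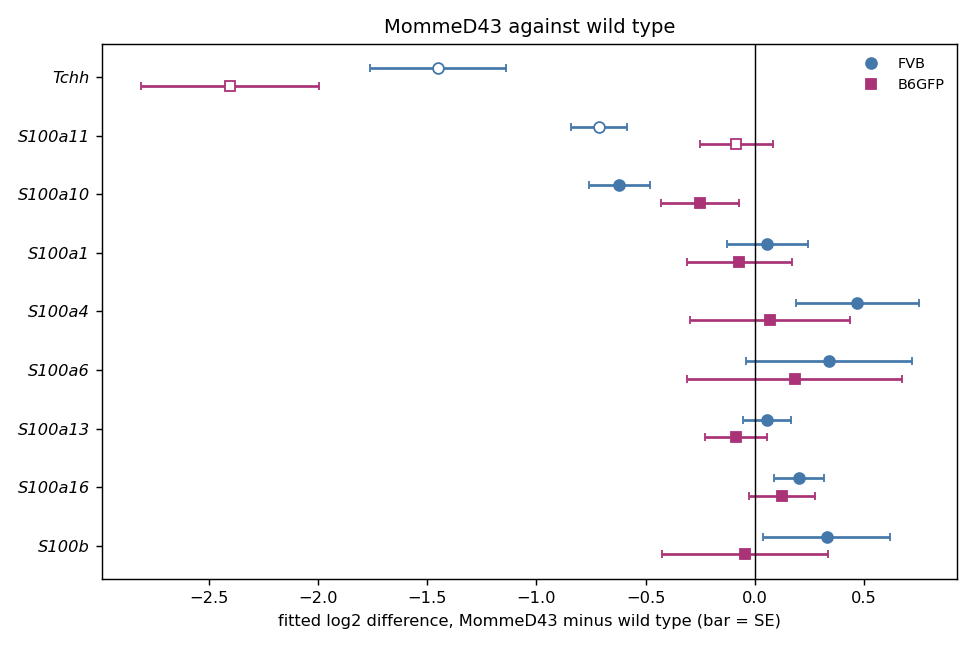
Fitted log2 differences of MommeD43 minus wild type with SE for the 9 genes, in FVB (circles) and B6GFP (squares). Hollow symbols mark Tchh and S100a11, which were selected on this comparison. Tchh was lower in both strains (-1.45 and -2.40), S100a11 and S100a10 were lower in FVB (-0.71 and -0.62), and the other 6 lay between -0.09 and 0.47.

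The strains were compared in wild type and in MommeD43. The libraries on which S100a11 and Tchh were selected enter these comparisons too, so their strain differences are given without a test. Of the other 7 genes, 5 passed in wild type, beside 41.1% of all genes, and 6 passed in MommeD43, beside 34.3% of all genes. Both comparisons came from 1 fit with shared batch terms and are not independent. S100a10 was higher in B6GFP in both. S100a1, S100a6, S100a16 and S100b were lower in both.

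S100a10 differed most. Its wild-type level was 6.53 ± 0.24 log2 CPM (SD, n = 5) in FVB and 8.90 ± 0.64 (SD, n = 4) in B6GFP, and every B6GFP library, wild type or MommeD43, lay at 7.09 or higher. One FVB_WT library lay above that, replicate 2 of batch 2 at 7.19. The fitted difference was 2.10 (SE 0.157, limma adjusted p = 1.34e-09), or 4.27-fold higher, in wild type and 2.46 (SE 0.184, adjusted p = 2.14e-09), or 5.52-fold higher, in MommeD43. For S100a11 the fitted difference was 0.57 (SE 0.146) in wild type and 1.20 (SE 0.172) in MommeD43.

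Among the genes that were lower in B6GFP, S100a6, which binds calcyclin-binding protein and is common in proliferating cells, fell by 1.93 (SE 0.429, limma adjusted p = 0.00118) in wild type and by 2.09 (SE 0.505, adjusted p = 0.00304) in MommeD43. S100b fell by 1.82 (SE 0.331, limma adjusted p = 0.000171) and by 2.20 (SE 0.389, adjusted p = 0.000185). The sum of the 5 astrocyte markers, S100b among them, ran from 6.42 to 7.63 log2 CPM in FVB_WT and from 4.92 to 7.01 in B6GFP_WT, and their part in the S100b difference was not tested. S100a1, a regulator of calcium handling best known from heart muscle, fell by 0.89 (SE 0.209, limma adjusted p = 0.00187) and by 1.02 (SE 0.246, adjusted p = 0.00299). S100a16, an S100 protein found in many tissues, fell by 0.41 (SE 0.131, limma adjusted p = 0.016) and by 0.49 (SE 0.154, adjusted p = 0.0177). Its wild-type call was lost without FVB_WT replicate 2 (adjusted p = 0.0778) or B6GFP_WT replicate 2 (adjusted p = 0.179), and with line means (-0.27, adjusted p = 0.125).

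The libraries behind these genes scattered widely. S100a6 ran from -1.83 to 1.33 log2 CPM in FVB_WT (median 0.07) and from -2.82 to -0.15 in B6GFP_WT (median -1.93). In FVB_MD43 its libraries were at 0.15, 0.28, 1.22, 1.03 and -1.66, and in B6GFP_MD43 at -2.02, -1.02, -1.36, -2.92 and -2.63. The strains overlapped in both genotypes because FVB_WT replicate 4 and FVB_MD43 replicate 5, both of batch 2, were low, and each of these held a single S100a6 read.

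S100b ran from -0.75 to 2.03 in FVB_WT (median 0.73) and from -1.56 to 0.41 in B6GFP_WT (median -0.91). Its FVB_MD43 libraries, at 1.003, 1.09, 0.68, 0.99 and 0.31, all lay above the B6GFP_MD43 libraries, at -1.52, -2.95, -0.25, -0.09 and -1.98. In batch 1 S100b had 210 to 615 reads a library in FVB, and in batch 2 it had 2 to 20.

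S100a1 ran from 2.46 to 3.82 in FVB_WT (median 3.04) and from 1.83 to 3.19 in B6GFP_WT (median 2.23), and the batch 1 library of B6GFP_WT replicate 1 (2.47) and B6GFP_WT replicate 4 reached the FVB range. In MommeD43 the FVB libraries were at 3.14, 3.16, 3.10, 3.62 and 2.09 and the B6GFP libraries at 2.35, 1.11, 1.69, 1.70 and 2.07. S100a16 ran from 4.56 to 5.40 in FVB_WT (median 4.95) and from 3.89 to 4.84 in B6GFP_WT (median 4.49). Its MommeD43 libraries were at 5.23, 5.05, 4.87, 5.36 and 5.20 in FVB and at 4.61, 4.50, 4.48, 4.56 and 5.12 in B6GFP, with B6GFP_MD43 replicate 4 alone inside the FVB range.

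S100a13, which takes part in the release of Fgf1, passed in MommeD43 alone (-0.39, SE 0.147, limma adjusted p = 0.0421) and in wild type had a difference of -0.25 (95% interval -0.51 to 0.01). Whether its strain difference depended on the allele was tested with a difference of -0.14 (95% interval -0.52 to 0.23). The MommeD43 call of S100a13 was lost without any 1 of FVB_WT replicate 3, FVB_MD43 replicate 1, B6GFP_WT replicate 4 or B6GFP_MD43 replicates 2 and 4 (adjusted p 0.0519 to 0.0626), and in wild type it was gained without FVB_WT replicate 4 (adjusted p = 0.0489). S100a4 passed in neither, with differences of 0.46 (95% interval -0.21 to 1.12) in wild type and 0.06 (95% interval -0.72 to 0.84) in MommeD43. Tchh had a fitted difference of 0.08 (SE 0.355) in wild type and of -0.87 (SE 0.417) in MommeD43. With a line left out the MommeD43 value ran from -1.35 (without B6GFP_MD43 replicate 3) to -0.22. It was -1.16 with line means, -0.37 without array weights and -0.083 on the log2 (CPM + 1) scale. Without array weights 1 of 7 passed in wild type (S100a10, limma adjusted p = 9.55e-05) and 2 of 7 in MommeD43 (S100a10 and S100b, adjusted p = 0.00042 and 0.0464).

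**Figure D3:**
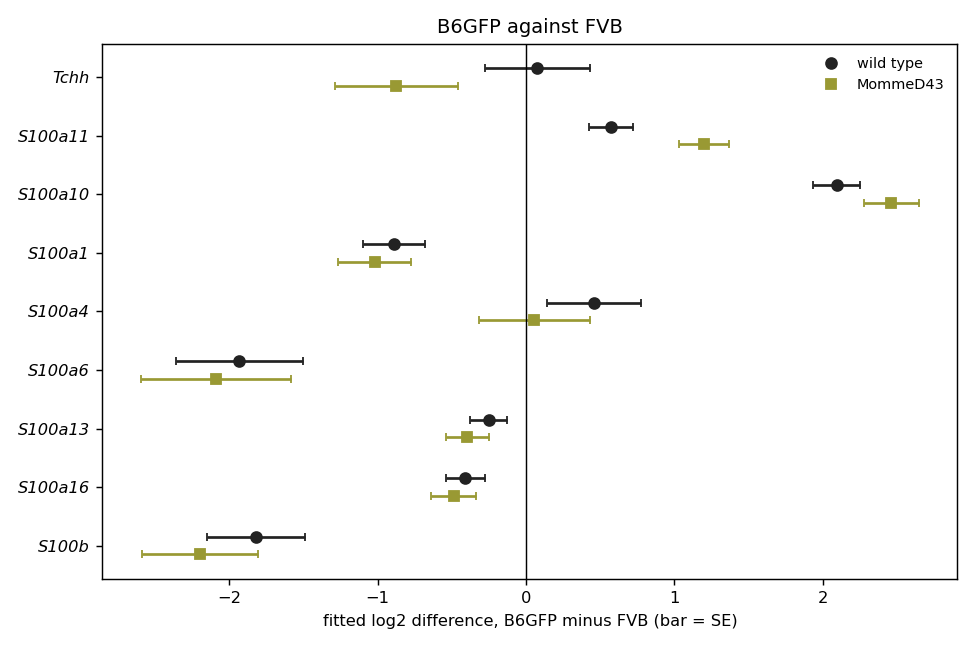
Fitted log2 differences of B6GFP minus FVB with SE, in wild type (circles) and MommeD43 (squares). S100a10 lies furthest to the right (2.10 and 2.46) and S100a6 and S100b furthest to the left (-1.93 to -2.20).

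The strain differences came from batch 1, the only batch that held both strains. Within batch 1 alone S100a10 differed by 2.11 (SE 0.15, limma adjusted p = 4.35e-05) in wild type and by 2.57 (SE 0.192, adjusted p = 0.000114) in MommeD43, and S100a1, S100a6 and S100b also passed in both. S100a16 did not pass in batch 1 in wild type (-0.35, adjusted p = 0.101) or in MommeD43 (-0.60, adjusted p = 0.0509). Reads before batch correction showed how much the batches differed. In FVB, S100a10 had 953.5 reads per depth of the deepest library in batch 1 and 4850 in batch 2, whereas in B6GFP it had 4670 in batch 1 and 6047 in batch 3. The strains were thus 4670 against 953.5 in batch 1, but 6047 against 4850 between the batches that each held 1 strain, where batch and strain cannot be told apart.

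The same held within single lines. The 2 FVB lines sequenced in both batches had 4.09 and 8.30 times as many scaled S100a10 reads in batch 2 as in batch 1, while the 3 B6GFP lines had 0.825 to 1.47 times as many in batch 3. S100b went the other way, at 0.0564 to 0.201 times in the FVB lines and 0.167 to 0.236 times in the B6GFP lines. S100a11 was at 0.268 to 0.313 times in the B6GFP lines and at 0.8996 and 1.915 times in the FVB lines. S100a6 was at 0.241 to 0.336 times in the FVB lines. S100a16 and S100a13 stayed within 0.681 to 1.26 times in all 5 lines. After the authors' correction, the 2 libraries of a line still differed by a median of 0.943 log2 CPM for S100a6, 0.832 for Tchh, 0.411 for S100b and 0.393 for S100a10, and by 0.0838 for S100a1.

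**Figure D4:**
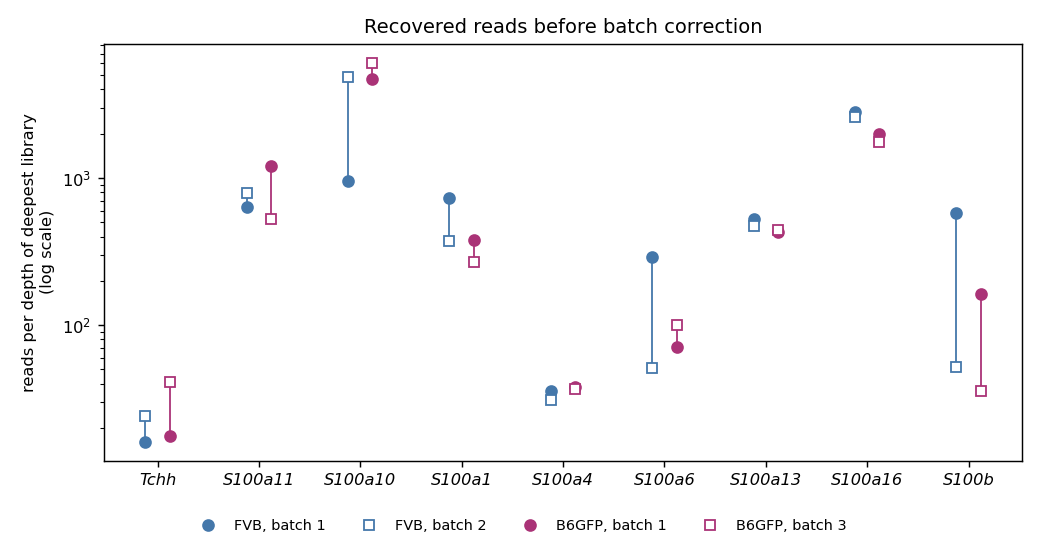
Recovered reads per depth of the deepest library, on a log scale, for each gene in FVB (blue) and B6GFP (purple), with batch 1 as filled circles and the other batch of the strain as open squares. S100a10 in FVB rises from 953.5 to 4850 and S100b in FVB drops from 580.5 to 52.0, while S100a13, S100a16 and S100a4 hardly move. Values are pooled over lines. Within single lines S100a4 changed more, at 0.148 to 0.942 times batch 1 in B6GFP and 0.606 and 1.98 times in FVB.

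Among wild-type FVB cells, levels per kilobase of exon put S100a10 first (6.25 log2 CPM per kb), then S100a11 (4.66), S100a16 (4.25), S100a1 (3.57), S100a13 (3.52), S100b (0.05), S100a6 (-0.55), S100a4 (-0.83) and Tchh (-3.14). S100a1 and S100a13 differed by less than their SDs over lines (0.372 and 0.334). The same was true of S100b against S100a6 (0.887 and 1.01) and of S100a6 against S100a4 (1.01 and 0.432). S100b and S100a4 differed by more than the SD of S100a4. In B6GFP wild type S100a10 stood at 8.62 per kb and S100a11 at 5.50, with S100a16 at 3.75 and S100a13 at 3.44, and S100a4 (-0.22), S100b (-1.25) and S100a6 (-2.04) came before Tchh (-2.99). These levels are descriptive, and the choice of an exon length for each gene fixes part of the order.

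**Figure D5:**
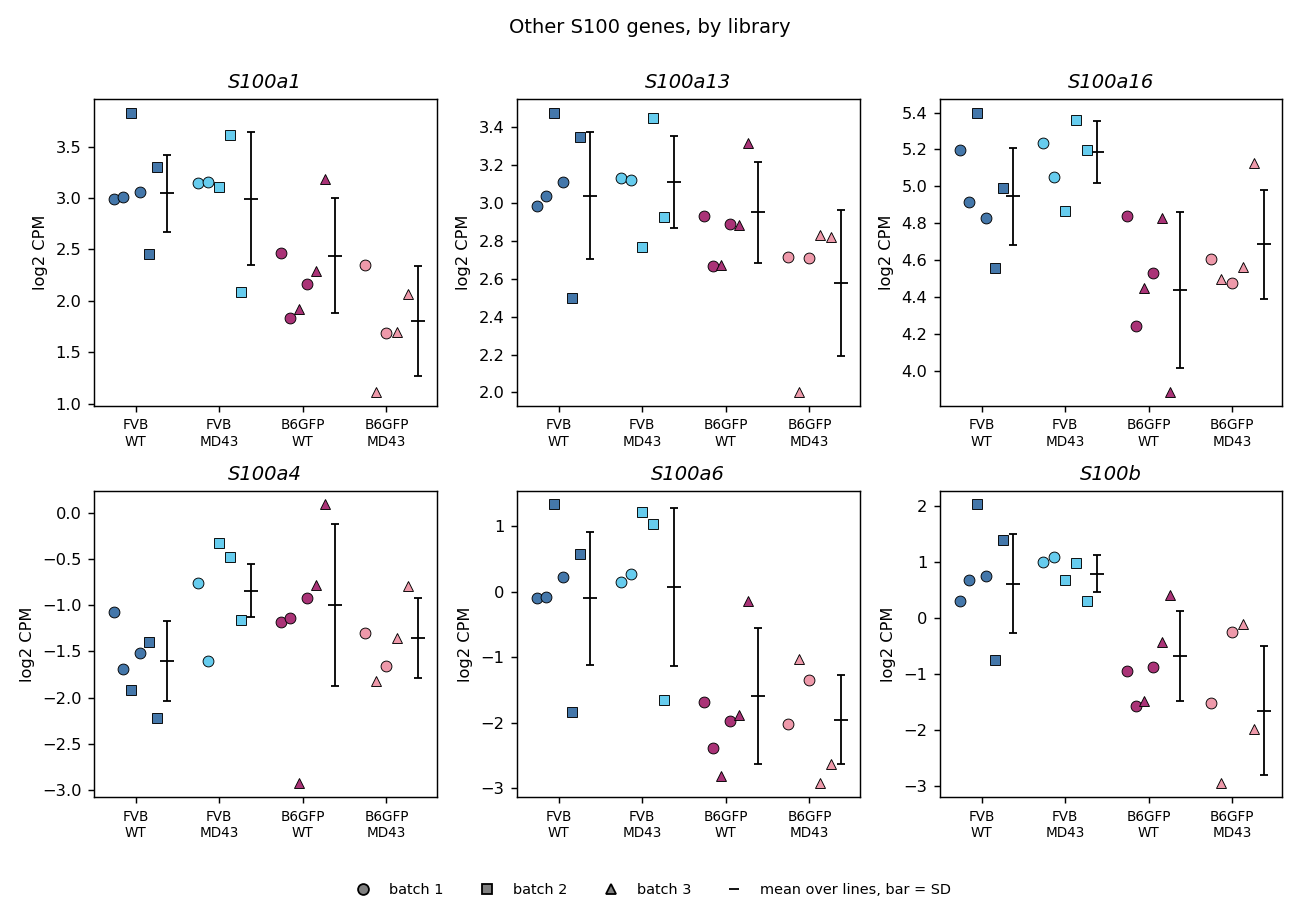
Log2 CPM of the 6 remaining S100 genes in each library, laid out as for Tchh, with means and SD over lines. S100a1, S100a6 and S100b sit lower in B6GFP than in FVB, and the widest scatter within a group is that of S100a6 in FVB, from -1.83 to 1.33 in wild type.

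Of 22 listed genes whose proteins are known to bind S100 proteins, all in the table, 11 passed in the wild-type strain comparison (7 higher in B6GFP and 4 lower, list median 0.12 against -0.02 for all genes) and 8 in the MommeD43 one (7 higher and 1 lower). Over all genes the shares were 41.1% and 34.3%. Fgf1, a growth factor released together with S100a13, was higher by 2.31 (SE 0.134, limma adjusted p = 2.57e-11) in B6GFP wild type. The 5 others with the smallest p were Dlc1, a tumour suppressor protein bound by S100a10 (0.87), the calcium release channel Ryr2 (-1.31), the synaptic vesicle protein Syt1 (1.74), the p53 regulator Mdm2 (0.30) and the receptor Tlr4 (1.79), with limma adjusted p from 4.43e-05 to 0.000799. Anxa2, the partner of S100a10, had a difference of 0.49 (limma adjusted p = 0.077). In the MommeD43 comparisons 0 of the 22 passed, in FVB, in B6GFP or in the difference between strains, and the list medians lay between -0.0044 and 0.04. Lor, the other expressed gene of the epidermal complex, was higher in B6GFP by 0.55 (limma adjusted p = 0.0119) in wild type and by 0.64 (adjusted p = 0.0155) in MommeD43.

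The profile nearest to S100a11 over the 17 lines, by root mean square difference of centred values, was that of a row without a gene symbol (0.116, where S100a11 itself spread by 0.671). Next came Stc1 (0.288), Rnd3 (0.30), Samd4 (0.312) and Snora28 (0.343). Per library the row had 0.355 to 0.436 times the S100a11 reads in batch 1. The batch 2 libraries had 0.784 to 0.924 times and those of batch 3 had 0.934 to 1.15 times. What this row represents was not established, and its sequence was not compared with that of S100a11. RefSeq lists a pseudogene, S100a11-ps, on chromosome 12, which was not in the table. Near-identical copies can share reads, so S100a11 levels are uncertain to that extent, and such sharing was not tested. Profiles near that of Tchh were those of Csf2ra (0.852), Pcdh7 (0.931), Gm16853 (0.95) and Sync (0.953), against a spread of 1.34 for Tchh itself. S100a11 ranked 247 of 14921 for Tchh, and S100a10 ranked 7572 of 12856 for S100a11. S100a11 and Tchh were selected together on values of these same lines, so their rank is not independent of that selection.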

How the data were processed

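The 24 libraries were poly(A) RNA sequencing of NSCs, 100 ng of RNA each. The authors trimmed reads with Trim Galore, aligned them to GRCm38.p6 with HISAT2 2.0.5 and used limma 3.40.6 with edgeR, per the labels and the study's methods, and the deposited values were log2 CPM corrected additively for batch. The counter and its use of strand were not given in the sources used here. Whole reads were recovered from the steps between values of 1 library within a batch (100% of 3143 low values were whole within 0.001 reads).

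Linear models were fitted in R 4.3.3 with limma 3.58.1 on the deposited values of 22 libraries, with group and batch as terms, array weights (0.101 to 4.9), the line as a block (consensus correlation 0.0831) and a mean-variance trend (16 residual and 4.86 prior degrees of freedom). Benjamini-Hochberg adjustment covered all 14922 genes, with a threshold of 0.05. The fit was tested on simulated data. Genes, lists, tests and alternatives were chosen with earlier results of these data known. Named genes were all members, genes of the epidermal complex or within 0.5 Mb, at most 6 partners passing in a strain comparison, and the 5 nearest profiles of S100a11 and Tchh, of which 1 is not reported here. RefSeq positions were matched for 14453 genes.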

Additional observations from a re-analysis of the deposited data

Results flagged for a closer look

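Line means of each gene in each group were screened for a line far from its group, by a gap to the nearest line exceeding Dixon's critical value. Of 36 sets examined 4 were singled out. Chance alone marks about 1 in 20, but Tchh and S100a11 were selected partly for standing apart in B6GFP_WT. The count of 4 therefore cannot be compared with that rate. Tchh in B6GFP_WT replicate 4 was at 0.873, with the other lines at -0.948 to -0.812. S100a11 in the same line was at 5.606, with the others at 4.075 to 4.286. Both are the values on which these genes were partly selected. S100a13 in B6GFP_MD43 replicate 2 was at 2.003, below the other lines at 2.716 to 2.82. S100a16 in B6GFP_MD43 replicate 4 was at 5.125, above the others at 4.5 to 4.606. No difference of the MommeD43 effect between strains passed for the 7 genes tested.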

How the results depend on the processing

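Each result was recomputed with 1 choice changed at a time. For the counts of genes passing, 40 of 45 values with another setting and 84 of 85 with a line left out stayed within 1.5 times the reported count or equal to it. In these tallies the strain counts are over all 9 genes and so include S100a11 and Tchh, whose selection used some of the same libraries. With S100a11 and Tchh counted, the strain comparison without array weights fell from 6 of 9 to 1 of 9 in wild type and from 7 of 9 to 3 of 9 in MommeD43, as it also fell from 6132 to 1259 and from 5124 to 1017 over all genes. The median centring of each library moved the wild-type strain calls over all genes from 2677 higher and 3455 lower to 3608 higher and 2544 lower. The MommeD43 comparison in FVB went from 0 to 2 of 7 with all 24 columns and to 1 of 7 with line means, and in B6GFP from 0 to 1 with all 24 columns. Columns that equal a group mean have no spread of their own, so the fit with all 24 columns understates error, and it called 510, 480 and 13991 genes in FVB, in B6GFP and in the MommeD43 strain comparison, against 11, 0 and 5124. With a line left out the FVB count ran from 0 to 3, the 3 being reached without FVB_MD43 replicate 2, where 976 genes passed over the whole table against 11. A filter at 1 CPM in at least 4 libraries removed Tchh and S100a4. Leaving S100a11 and Tchh out of the strain counts, a choice made after seeing the data, gave 5 of 7 and 6 of 7.

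Signs that turned belonged to differences that did not pass, except S100a4 between strains in MommeD43 with all 24 columns (-0.52, adjusted p = 1.39e-13). The same S100a4 difference was -0.42 without weights, -0.47 with line means, -0.30 in batch 1 and -0.0035 as log2 (CPM + 1). Tchh between wild-type strains was -0.11 with line means. Within FVB, S100a1 was -0.076 without weights, -0.028 with all 24 columns, -0.032 with line means and -0.44 in batch 2, S100a13 was -0.0067 with line means and -0.24 in batch 2, and S100b was -0.43 in batch 2. Within B6GFP, S100a4 was -0.28 without weights, -0.17 with all 24 columns, -0.023 with line means and -0.38 in batch 1. S100a6 was -0.23 without weights, -0.12 with line means and -0.31 in batch 3, S100a16 was -0.047 with line means and -0.016 in batch 1, and S100b was 0.27 in batch 1, 0.019 in batch 3 and 0.0090 as log2 (CPM + 1). S100a11 in B6GFP was 0.037 in batch 1 and 0.054 in batch 3. The strain difference of the effect was 0.14 for S100a6 in batch 1 and 0.017 for S100a16 without weights. The cause was not tested.

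Leaving out a line in turn, signs changed in these ranges. Between strains, Tchh in wild type ran from -0.096 to 0.36 and S100a4 in MommeD43 from -0.49 to 0.21. In FVB, S100a1 ran from -0.018 to 0.15 and S100a13 from -0.017 to 0.10. In B6GFP, S100a1 ran from -0.50 to 0.18, S100a4 from -0.55 to 0.26, S100a16 from -0.13 to 0.27, S100b from -0.38 to 0.68 and S100a11 from -0.29 to 0.30. In the strain difference, S100a1 ran from -0.56 to 0.13, S100a6 from -0.30 to 0.20, S100a16 from -0.33 to 0.071 and S100b from -0.70 to 0.36.

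With the replicate number as a block in place of the line, 0 of 7 passed in FVB, in B6GFP and in the strain difference, S100a4 and S100a16 in B6GFP were at -0.44 and -0.11, and 15 genes passed in FVB over all genes against 11. Over all genes, deviations of same-numbered lines from their group means correlated at -0.484 to 0.138. These values do not settle whether lines with the same number are related. The strain comparison could not be fitted with that block.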
